A study of Homo sapiens with 12 samples.

Results

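The 10 genes described here encode enzymes that make pyrimidine nucleotides and their deoxy forms: CAD, DHODH, UMPS, CTPS1, CTPS2, DTYMK, TK1, DCTD, RRM1 and RRM2. They were chosen by name, for their place in the pathway, with earlier results of these data known. All 10 were found among the 60648 genes of the count table. RNA was sequenced from HCT116, a line of human colon carcinoma cells, with 3 libraries in each of 4 groups. The groups cross 2 genotypes, MTHFD2-WT (wild type, WT) and MTHFD2-KO (knock-out, KO), with an initial and a final harvest 2 months of culture apart. The knock-out was made with CRISPR-Cas9 and is 1 isolated clone, so a genotype difference here cannot be told apart from a difference of that clone, and the libraries of a group are replicates of 1 line. All cells were grown in DMEM with serum and antibiotics, and whether the wild-type cells had also been cloned is not given in the sources used here. MTHFD2 is a mitochondrial enzyme of one-carbon folate metabolism, the pathway that also supplies the carbon unit used by thymidylate synthase.

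Pyrimidines are built from glutamine, bicarbonate and aspartate. CAD, a protein with several catalytic domains, carries out the opening steps up to dihydroorotate; DHODH, in the inner mitochondrial membrane, oxidises dihydroorotate to orotate; and UMPS turns orotate into UMP. CTP synthase, encoded by CTPS1 and CTPS2, converts UTP to CTP with glutamine as the nitrogen donor. Ribonucleotide reductase, made of the large subunit RRM1 and a small subunit that is either RRM2 or RRM2B, reduces ribonucleotides to deoxyribonucleotides. The thymidylate arm is fed by DCTD, which deaminates dCMP to dUMP, and by TK1, which phosphorylates salvaged thymidine, and DTYMK phosphorylates dTMP. TK1, RRM2 and DTYMK are known as genes whose transcripts are more abundant in dividing cells, and cell lines of colon carcinoma divide continuously.

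The DNA just upstream of 4 of the genes is shown first, because CTPS1 and UMPS were the members that passed the test between genotypes at the initial harvest, and because the transcript ratio of RRM2 to RRM1 separated the genotypes. Sequences come from RefSeq (GRCh38.p14) and are written 5′ to 3′ on the strand of the gene, in lower case. Capitals mark matches to 1 of 4 short motifs searched on both strands in the 250 bases before each annotated start: the CCAAT box (CCAAT), the E-box (CACGTG), the cell cycle homology region or CHR (TTTGAA) and an E2F-like motif (TTTNNCGC). Only bases outside the exons of the counted gene model are printed for CTPS1, UMPS and RRM1.
CTPS1 (chr1:40979446-40979687, plus strand): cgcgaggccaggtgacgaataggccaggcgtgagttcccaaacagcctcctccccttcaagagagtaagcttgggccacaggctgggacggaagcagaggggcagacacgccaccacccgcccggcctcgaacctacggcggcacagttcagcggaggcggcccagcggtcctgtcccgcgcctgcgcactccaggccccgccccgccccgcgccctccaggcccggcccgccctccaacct
UMPS (chr3:124730202-124730432, plus strand): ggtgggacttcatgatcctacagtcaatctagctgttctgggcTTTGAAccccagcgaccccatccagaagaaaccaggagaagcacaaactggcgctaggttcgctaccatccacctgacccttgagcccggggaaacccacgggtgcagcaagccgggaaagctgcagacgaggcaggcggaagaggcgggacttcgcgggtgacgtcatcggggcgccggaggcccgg
RRM1 (chr11:4094435-4094684, plus strand): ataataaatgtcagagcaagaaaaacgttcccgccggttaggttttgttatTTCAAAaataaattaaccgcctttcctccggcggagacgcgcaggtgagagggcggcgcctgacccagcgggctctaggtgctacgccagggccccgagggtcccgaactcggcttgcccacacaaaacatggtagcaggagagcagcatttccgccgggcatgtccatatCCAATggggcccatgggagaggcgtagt

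The RRM2 start at base 10122739 of chromosome 2 had 3 CCAAT boxes on the plus strand, at positions -123, -93 and -66, more than any other member window. The whole RRM2 window lies in exons of the counted gene model, which begins farther upstream, so only 25 bases round each box are shown, to compare the boxes with each other.
RRM2 box at -123 (chr2:10122606-10122630): caaggcgcagCCAATgggaagggtc
RRM2 box at -93 (chr2:10122636-10122660): catggcacagCCAATgggaagggcc
RRM2 box at -66 (chr2:10122663-10122687): ggcaccaaagCCAATgggaagggcc
The 3 windows share 1 unbroken run of 15 bases, agCCAATgggaaggg. RRM1, the partner subunit, had 1 CCAAT box at -28 and a CHR match, read on the other strand as TTCAAA, at -199. UMPS had CHR matches at -207 and -7, of which the first is in the stretch printed, and CTPS1 held none of the 4 motifs.

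Over the members, a CCAAT box was present in 7 of 15 windows, belonging to 6 of the 10 genes (CAD, DHODH, DTYMK, RRM1, RRM2 and TK1). It was present in 32.0% of all 35116 windows of that length and in 37.0% of genes. CHR matches were in the windows of UMPS and RRM1 only, against 13.3% of all windows. The E-box was found at DHODH alone among the members, against 6.3% of all windows, and the E2F-like motif at none, against 5.9%. These are matches of letters in fixed windows; a window without a match says only that those letters are not in it, and the data hold no measurement of binding.

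Library totals lay between 38597809 and 40017561 counts. Levels are TMM-scaled CPM, that is a gene's counts relative to the library total after edgeR's scaling for composition, and differences are log2 fold changes from edgeR's quasi-likelihood test with its standard error (SE), called at a Benjamini-Hochberg adjusted p under 0.05 over 18289 genes. All 10 members passed the filter on low counts. In the check of the labels, MTHFD2 was between 319 and 457 CPM in the 6 wild-type libraries and between 122.8 and 155.3 CPM in the 6 knock-out libraries, so its transcript was lower but present. The remaining counts do not say whether the transcript carries the edit. Of 8 colon epithelial markers, VIL1 and CDH17 were under 1 CPM in every library. Of the 7 tested, 2 were called lower and none higher in KO at the initial harvest (median -0.22), and 4 lower and none higher at the final (median -0.34). The summed level of the 8 was 2620 to 3230 CPM in WT initial, 2470 to 2710 CPM in KO initial, 3060 to 3200 CPM in WT final and 2210 to 2590 CPM in KO final libraries, so the final groups did not overlap; its part in the members' differences was not tested. As for the markers of other cell types, the leukocyte and endothelial sums stayed at or under 2.35 CPM. The leukocyte sum was 2.06 to 2.35 CPM in KO initial against 0.513 to 0.851 CPM in WT initial libraries. Of 2 tested leukocyte markers, 1 was called higher in KO at each harvest. The fibroblast sum was 37.5 to 48.2 CPM in KO initial against 56.8 to 69.9 CPM in WT initial libraries, with DCN and LUM at 0. It was 43.4 to 59.3 CPM in KO final against 60.2 to 78.8 CPM in WT final libraries. Of the 6 fibroblast markers, 4 were under 1 CPM in every library of each group, and 5 in WT final. The fibroblast sum therefore rests on few of them. Of 3 tested fibroblast markers, 2 were called lower and 1 higher in KO at the initial harvest, and 1 lower and 1 higher at the final. A library stood apart in each wild-type group. WT initial replicate 2 differed from its partners by 58.64 and 27.81 in chi-square per gene, against 17.45 between those partners, and in it the median of 22 S phase genes was 0.17 above its mean over the 12 libraries on the log2 scale, against -0.13 and -0.07 in the other WT initial libraries. For WT final replicate 1 these values were 37.59 and 50.04, against 5.8 between those partners, and the median of 11 further deoxynucleotide genes was -0.25 in it against 0.11 and 0.11. Results on the members are given without these libraries where that changes them. Both members called at the final harvest stayed called without WT final replicate 1. In the knock-out, KO initial replicate 1 differed from its partners by 8.49 and 11.9, against 4.86 between those partners. In KO final replicate 2 the S phase median was -0.11, against 0.03 and 0.03 in the other KO final libraries.

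Between genotypes at the initial harvest, 2 of the 10 members were higher in the knock-out, UMPS and CTPS1, and none was called lower. In this comparison 19.9% of all genes tested were called, 8.55% higher and 11.3% lower. The median log2 fold change of the members was 0.19 and 7 of 10 lay above 0, while the median of all genes was 0. At the final harvest DHODH and CTPS1 were higher in the knock-out and none was called lower, where 18.5% of all genes were called, 8.38% higher and 10.2% lower. The members' median was then 0.04, with 5 of 10 above 0. Shares of 2 in 10 are near the share of all genes called at either harvest. Groups that did not overlap were found for 5 of 10 members at the initial harvest, 4 of them higher in the knock-out (CAD, DHODH, UMPS and CTPS1) and 1 lower (CTPS2), where 35.5% of all genes had none, 17.1% higher and 18.4% lower. At the final harvest it was again 5 of 10, with DHODH, UMPS, CTPS1 and RRM2 higher and DCTD lower, where it was 33.1% of all genes, 15.9% higher and 17.2% lower.

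**Figure D1:**
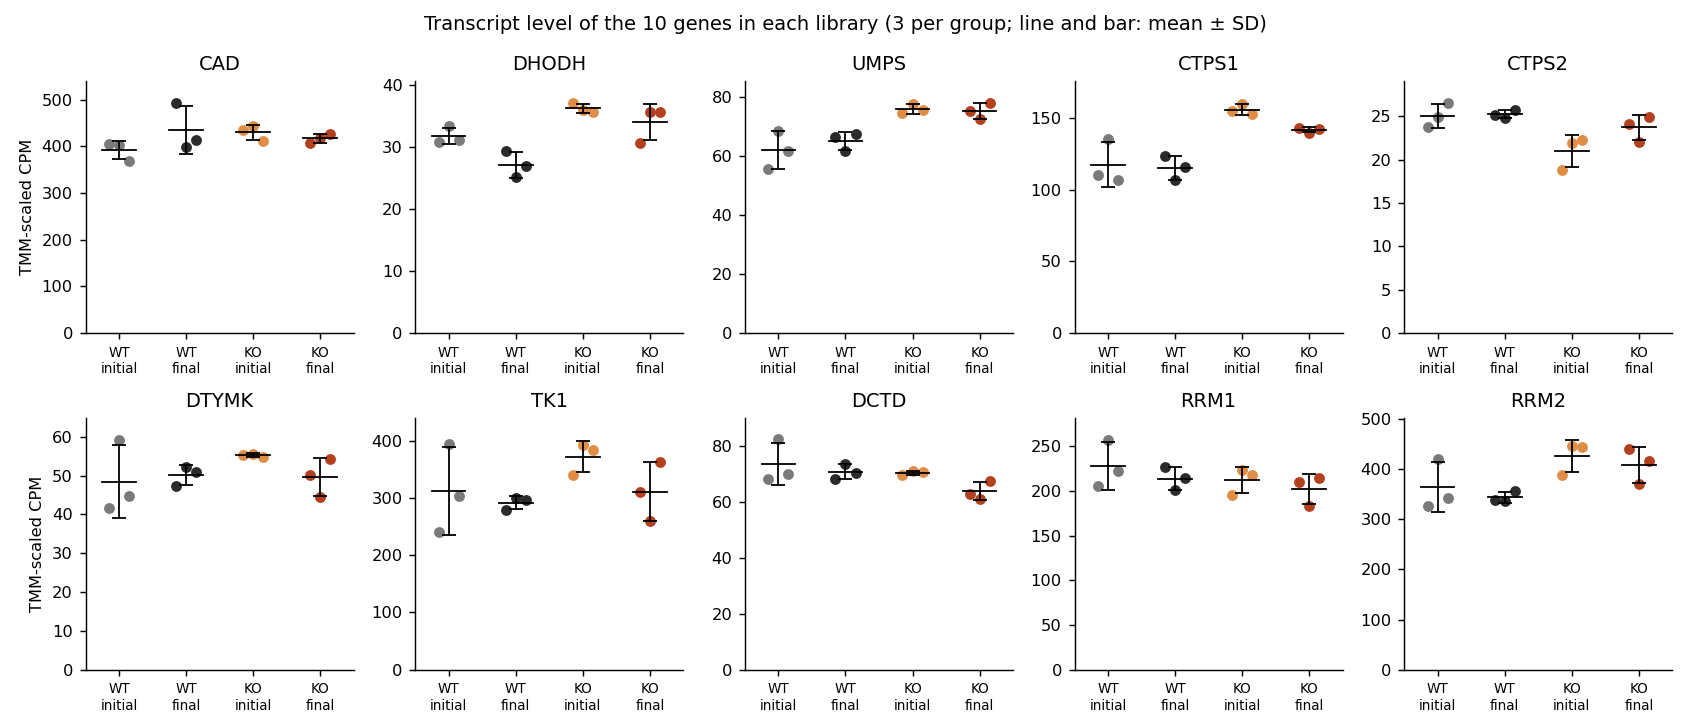
Level of each of the 10 genes in TMM-scaled CPM (vertical axis, from 0) in the 12 libraries, grouped by genotype and harvest along the horizontal axis; points are libraries, the line and bar are the mean ± SD of 3 libraries. CTPS1 lies between 139.8 and 160.0 CPM in the knock-out and between 106.6 and 135.7 CPM in the wild type, while RRM1 overlaps between genotypes at both harvests.

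CTPS1 (ENSG00000171793.16, chr1:40979688-41012565, plus strand) encodes the CTP synthase that dividing lymphocytes are known to depend on. It was the only member called at both harvests. In the wild type its level was 110.2, 135.7 and 107.1 CPM at the initial and 123.5, 106.6 and 116.0 CPM at the final harvest. In the knock-out it was 155.0, 160.0 and 152.8 CPM at the initial and 143.3, 139.8 and 142.8 CPM at the final harvest. Every knock-out library was above every wild-type library. The share of all genes that separate over both harvests was not counted. Within a harvest, 17.1% (initial) and 15.9% (final) of all genes lay wholly higher in the knock-out. The initial difference was 0.41 on the log2 scale (SE 0.0904, adjusted p = 0.00422), or 32.5% more transcript, and the final difference was 0.30 (SE 0.0905, adjusted p = 0.0289), or 23.0% more. The initial call was kept when any 1 of the 12 libraries was left out (adjusted p from 0.000209 to 0.0358). The final call was lost in 6 of 12 such fits: without WT final replicate 2 (0.24, adjusted p = 0.167) or 3 (0.30, adjusted p = 0.091), KO initial replicate 1 (0.29, adjusted p = 0.0505), or KO final replicate 1 (0.29, adjusted p = 0.0947), 2 (0.31, adjusted p = 0.0644) or 3 (0.29, adjusted p = 0.0869).

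CTPS2 (ENSG00000047230.15, chrX:16587999-16712936, minus strand), the second CTP synthase, did not follow CTPS1. Its wild-type levels were 23.8, 24.9 and 26.5 CPM at the initial and 25.2, 24.9 and 25.7 CPM at the final harvest, and its knock-out levels 18.8, 21.9 and 22.3 CPM, then 24.1, 22.1 and 24.97 CPM. The initial groups did not overlap, with the knock-out below the wild type, and the final groups did. The initial log2 difference of -0.26 (SE 0.0883) missed the threshold with an adjusted p of 0.0522. It passed with DESeq2 (adjusted p = 0.0378), with genes of a mean CPM of at least 1 (adjusted p = 0.0443) and without WT final replicate 1 (adjusted p = 0.043). The final difference was -0.09 (adjusted p = 0.541).

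Because both synthases were measured in the same library, their ratio per kb of counted length does not depend on the library's scaling. CTPS1 transcript was 1.99 to 2.69 times that of CTPS2 in the 6 wild-type libraries and 2.82 to 4.06 times in the 6 knock-out libraries. The counted lengths cover all annotated exons, so the absolute ratio depends on the gene models, and the comparison between libraries does not. The group means of this ratio were 2.32 ± 0.351 (WT initial) and 2.26 ± 0.154 (WT final), against 3.68 ± 0.345 (KO initial) and 2.96 ± 0.152 (KO final; SD, n = 3 each). The ratio was 1.45 times as high in the knock-out over both harvests (log2 difference 0.53; exact two-sided permutation within harvest, 400 relabellings, p = 0.005, the smallest this design can give; adjusted p = 0.02 over 8 ratio tests). All 6 knock-out values exceeded all 6 wild-type values. How often ratios of other gene pairs separate in this way was not counted. The log2 difference stayed between 0.48 and 0.59 when any 1 library was left out, each time with an adjusted p of 0.02 (exact permutation). Between harvests the ratio differed by -0.17 (exact permutation, adjusted p = 0.176), which became -0.23 with an adjusted p of 0.04 without WT initial replicate 3.

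**Figure D2:**
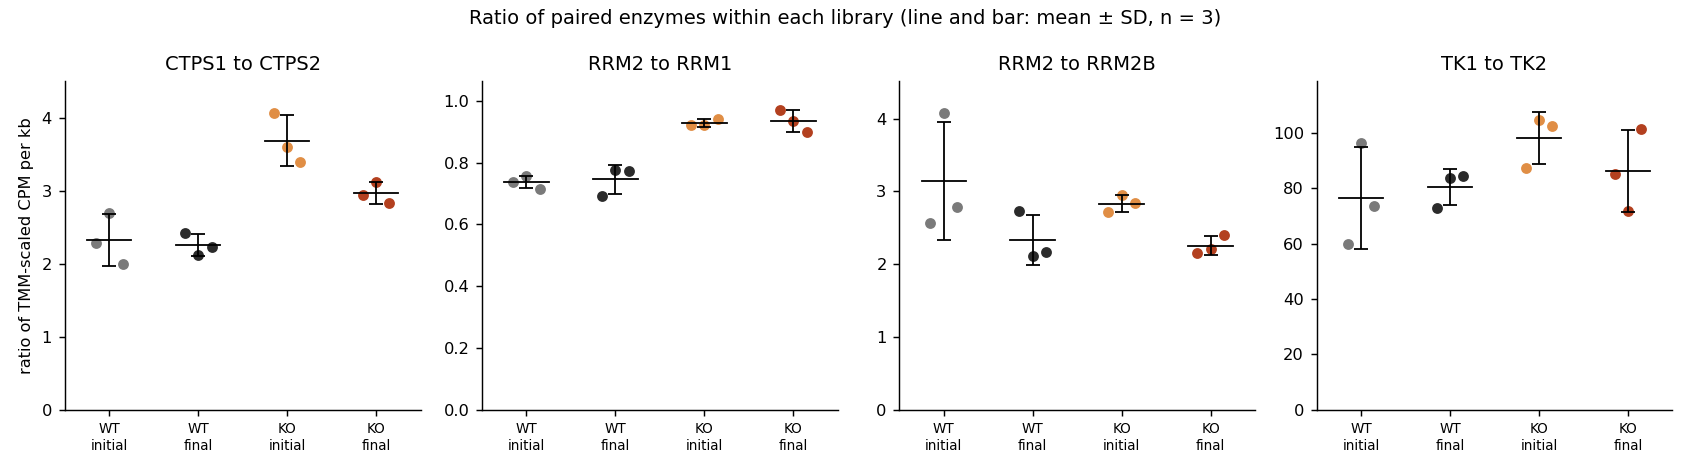
Ratio of 2 transcripts within each library (vertical axes, from 0; TMM-scaled CPM per kb of counted length) for 4 pairs of enzymes, by genotype and harvest; points are libraries, the line and bar are the mean ± SD of 3. The RRM2 to RRM1 ratio spans 0.692 to 0.776 in WT and 0.900 to 0.971 in KO, and CTPS1 to CTPS2 is also apart between genotypes, whereas TK1 to TK2 overlaps.

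The enzymes of the route to UMP gave small and unequal differences. UMPS (ENSG00000114491.14, chr3:124730433-124749273, plus strand), which makes UMP from orotate, was at 55.7, 68.7 and 61.8 CPM in WT initial and at 74.6, 77.8 and 75.8 CPM in KO initial libraries. At the final harvest it was at 66.4, 61.9 and 67.6 CPM in WT and at 75.3, 72.5 and 78.1 CPM in KO. The knock-out libraries were above the wild-type libraries at each harvest. The initial difference of 0.29 (SE 0.082, interval of ± 2 SE from 0.13 to 0.46) passed the test with an adjusted p of 0.018, and the final one of 0.21 (SE 0.082) did not, with an adjusted p of 0.0956. The initial call was lost without WT initial replicate 1 (0.22, adjusted p = 0.0848) or 3 (0.29, adjusted p = 0.0654) and without KO initial replicate 2 (0.28, adjusted p = 0.0768) or 3 (0.29, adjusted p = 0.0539).

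DHODH (ENSG00000102967.12, chr16:72008588-72027664, plus strand), the one enzyme of the route placed in the mitochondrion and tied to the respiratory chain through ubiquinone, was at 30.8, 33.3 and 31.2 CPM in WT initial and 37.0, 36.0 and 35.6 CPM in KO initial libraries. At the final harvest the values were 29.3, 25.1 and 26.9 CPM in WT and 30.6, 35.6 and 35.7 CPM in KO. Neither harvest had overlapping groups. DHODH was higher in the knock-out at the final harvest by 0.33 (SE 0.0866, adjusted p = 0.0139), or 25.3%. The initial difference was 0.19 (SE 0.086, adjusted p = 0.14), and the change of the difference between harvests, 0.14, had an adjusted p of 0.698. The final call was lost in 4 fits that each left out 1 library: WT final replicate 2 (0.26, adjusted p = 0.0999) or 3 (0.31, adjusted p = 0.0592), and KO final replicate 2 (0.29, adjusted p = 0.0649) or 3 (0.28, adjusted p = 0.0718).

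CAD (ENSG00000084774.14, chr2:27217369-27243943, plus strand), which holds the carbamoyl phosphate synthetase that sets the pace of the pathway, passed the test at neither harvest. It was at 405, 403 and 369 CPM in WT initial, 435, 444 and 412 CPM in KO initial, 494, 399 and 413 CPM in WT final and 408, 417 and 427 CPM in KO final libraries. The initial groups did not overlap and the final ones did, with WT final replicate 1 the highest of the 12. The differences were 0.13 (± 2 SE from -0.05 to 0.31, adjusted p = 0.335) and -0.06 (from -0.24 to 0.12, adjusted p = 0.71). Without WT final replicate 1 the final difference was 0.04.

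**Figure D3:**
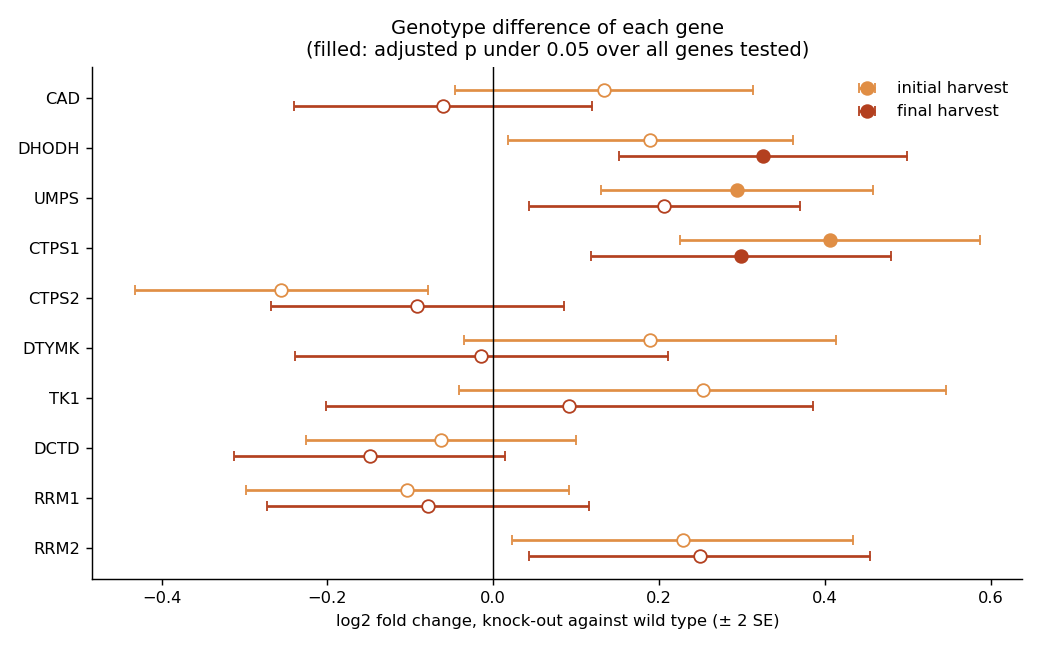
log2 fold change of knock-out against wild type (horizontal axis; bars are ± 2 SE) for each of the 10 genes (vertical axis) at the initial and final harvest; filled points have an adjusted p under 0.05 over all genes tested. Filled points are UMPS and CTPS1 at the initial and DHODH and CTPS1 at the final harvest, at 0.29 to 0.41, and RRM1, DCTD and CTPS2 lie below 0 at both.

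For ribonucleotide reductase, the 2 subunits differed in how they stood between genotypes. RRM2 (ENSG00000171848.16, chr2:10120698-10211725, plus strand), the small subunit that carries the radical and is degraded after S phase, was at 327, 420.3 and 343 CPM in WT initial and 389, 446 and 443 CPM in KO initial libraries. The final values were 339, 337 and 357 CPM in WT and 440.6, 370 and 417 CPM in KO. The initial groups overlapped through WT initial replicate 2, and the final groups did not. The differences of 0.23 (SE 0.103, adjusted p = 0.136) and 0.25 (SE 0.103, adjusted p = 0.11) did not pass the test. RRM1 (ENSG00000167325.15, chr11:4094707-4138932, plus strand), the large subunit with the catalytic and allosteric sites, was at 205, 257 and 222 CPM in WT initial and 195, 224 and 218 CPM in KO initial libraries. Final levels were 226, 201 and 214 CPM in WT and 209.7, 183 and 214 CPM in KO. Its groups overlapped at both harvests, with differences of -0.10 (adjusted p = 0.508) and -0.08 (adjusted p = 0.648).

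In every group but WT final, the ratio of RRM2 to RRM1 per kb varied less, relative to its mean, than either gene did. It was 0.738, 0.756 and 0.716 in WT initial and 0.692, 0.776 and 0.771 in WT final libraries. In the knock-out it was 0.921, 0.922 and 0.942 at the initial and 0.971, 0.934 and 0.900 at the final harvest. No wild-type library reached any knock-out library, and how often ratios of other gene pairs separate in this way was not counted. The ratio was 1.26 times as high in the knock-out (log2 difference 0.33; exact two-sided permutation within harvest, p = 0.005, the smallest possible; adjusted p = 0.02) and differed by 0.01 between harvests (exact permutation, adjusted p = 0.68). Leaving out any 1 library gave genotype differences from 0.30 to 0.34, each with an adjusted p of 0.02 by exact permutation. WT initial replicate 2, in which RRM2 and RRM1 were both high (0.13 and 0.27 above their means on the log2 scale), had a ratio inside the range of the other wild-type libraries. The length counted for RRM2, 9153 bases, covers all annotated exons, so the absolute ratio depends on the gene model, and the comparison between libraries does not.

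RRM2B, the p53-inducible small subunit used outside S phase, was measured as the alternative partner. It was at 75.0, 60.6 and 72.4 CPM in WT initial, 84.4, 89.0 and 91.9 CPM in KO initial, 72.9, 94.0 and 97.2 CPM in WT final and 120.6, 98.5 and 102.2 CPM in KO final libraries. RRM2B was higher in KO at the initial harvest by 0.35 (SE 0.114, adjusted p = 0.0391), and the final difference of 0.28 did not pass (adjusted p = 0.0986). The initial call was lost without WT initial replicate 2, its lowest library (0.26, adjusted p = 0.114), or 3 (0.38, adjusted p = 0.0794), and without KO initial replicate 1 (0.39, adjusted p = 0.0527), 2 (0.35, adjusted p = 0.107) or 3 (0.32, adjusted p = 0.129). The ratio of RRM2 to RRM2B differed by -0.08 between genotypes (exact permutation, adjusted p = 0.68) and was 0.774 times as high at the final as at the initial harvest (-0.37; exact permutation within genotype, p = 0.01, adjusted p = 0.0267). That call was lost without WT initial replicate 2 (-0.27, exact permutation, adjusted p = 0.0533), WT final replicate 2 (-0.34, adjusted p = 0.0667) or WT final replicate 3 (-0.35, adjusted p = 0.0533).

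In the thymidylate arm no member passed the test between genotypes at either harvest. TK1 (ENSG00000167900.12, chr17:78174091-78187233, minus strand), the cytosolic thymidine kinase, was at 239.6, 393 and 304 CPM in WT initial and 341, 392 and 383 CPM in KO initial libraries. The final values were 278, 299.8 and 297 CPM in WT and 311, 259.5 and 363 CPM in KO. The widest group was WT initial, whose highest library exceeded all knock-out libraries. The differences were 0.25 (SE 0.147, ± 2 SE from -0.04 to 0.55, adjusted p = 0.257) and 0.09 (SE 0.147, adjusted p = 0.732). TK2, the mitochondrial thymidine kinase, stayed between 19.7 and 23.0 CPM in the 12 libraries, and the TK1 to TK2 ratio differed by 0.23 between genotypes (exact permutation, p = 0.11, adjusted p = 0.176).

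DTYMK (ENSG00000168393.13, chr2:241675747-241686944, minus strand), which makes dTDP, was at 41.6, 59.1 and 44.7 CPM in WT initial and within 54.8 to 55.6 CPM in the 3 KO initial libraries. Its final values ranged from 47.4 to 52.2 CPM in WT and from 44.5 to 54.4 CPM in KO. WT initial replicate 2 again lay above the knock-out, and the differences were 0.19 (adjusted p = 0.27) and -0.01 (adjusted p = 0.951). DCTD (ENSG00000129187.15, chr4:182890060-182917936, minus strand), which supplies dUMP, was at 68.3, 82.3 and 70.1 CPM in WT initial and 69.5 to 70.9 CPM in KO initial libraries. Its final levels were 68.3 to 73.6 CPM in WT and 61.1 to 67.4 CPM in KO, without overlap, and the differences of -0.06 (adjusted p = 0.648) and -0.15 (adjusted p = 0.239) did not pass. TYMS, the thymidylate synthase that uses the folate carbon unit, differed by 0.15 (adjusted p = 0.415) and 0.16 (adjusted p = 0.415).

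The initial values of these enzymes moved with single wild-type libraries, in either direction. In WT initial replicate 2, TK1, RRM1, TYMS, DCTD, DTYMK and RRM2 lay 0.31, 0.27, 0.26, 0.24, 0.22 and 0.13 above their means over the 12 libraries, together with the S phase genes (0.17) and 14 G2 and M phase genes (0.14), while RRM2B was at -0.52. Without it, 4615 of all genes tested were called between genotypes at the initial harvest, against 3635 (19.9%) with all libraries. The share of all genes called without that library is not given here. Calls of members and listed genes in that fit are therefore not read as particular to them. In that fit 5 members were called higher in KO in place of 2. They were CTPS1 (0.52, adjusted p = 0.000209), UMPS (0.37, adjusted p = 0.00286), DTYMK (0.35, adjusted p = 0.00872), TK1 (0.45, adjusted p = 0.0166) and RRM2 (0.34, adjusted p = 0.0168). TYMS was then also called (0.34, adjusted p = 0.0136), as were 6 of the 22 S phase and 5 of the 14 G2 and M phase genes, against 0 and 1 with all libraries. Leaving out WT initial replicate 1 instead, the lowest library for TK1, DTYMK, RRM2 and TYMS, gave smaller differences: TK1 was at 0.0955 (adjusted p = 0.688), DTYMK at 0.0913 (adjusted p = 0.646), RRM2 at 0.16 (adjusted p = 0.372) and TYMS at 0.048 (adjusted p = 0.839). CTPS1 was then the 1 member called. Final differences moved with single knock-out libraries. RRM2 was at 0.32 without KO final replicate 2 and at 0.19 without KO final replicate 1. TK1 was at 0.21 without KO final replicate 2 and at -0.04 without KO final replicate 3. None of these passed the test. The part of the cell cycle genes in the members' differences was not tested.

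**Figure D4:**
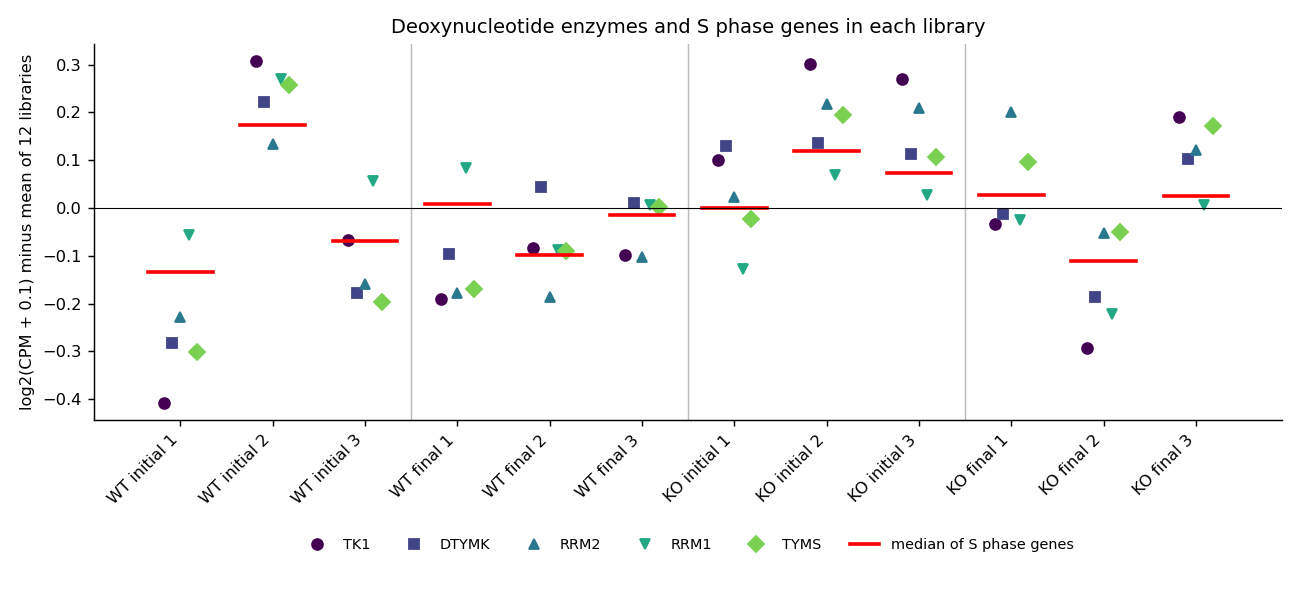
Deviation of 5 enzymes from their own mean over the 12 libraries (vertical axis, log2 of CPM + 0.1) in each library (horizontal axis), with a red line at the median deviation of 22 S phase genes. In WT initial replicate 2 the S phase median is 0.17 and TK1 is at 0.31, and in WT initial replicate 1 they are at -0.13 and -0.41.

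Between harvests, no member passed the test in either genotype, where 6.47% of all genes were called in WT and 1.48% in the knock-out. In the wild type 1 member had an unadjusted p under 0.05, DHODH at -0.23 (edgeR adjusted p = 0.141), and in the knock-out none had. DESeq2 also called none of the members in either. The final wild-type libraries of DHODH, at 25.1 to 29.3 CPM, lay wholly below the initial ones, at 30.8 to 33.3 CPM. The share of all genes without overlap between harvests in the wild type is not given here. The members' log2 differences ran from -0.23 to 0.15 in the wild type (median -0.04) and from -0.26 (TK1) to 0.18 (CTPS2) in the knock-out (median -0.08, 1 of 10 above 0), beside medians of 0.01 and 0.00 for all genes. The final knock-out libraries of CTPS1 lay wholly below the initial ones, at -0.14 with an adjusted p of 0.524. DTYMK and DCTD likewise had no overlap there, at -0.15 and -0.14 (adjusted p = 0.567 and 0.444), in a comparison where 23.2% of all genes had none.

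Whether the genotype difference changed between harvests was tested by the interaction of genotype and time, which called none of the members and 1.28% of all genes. No member had an unadjusted p under 0.05 there, and DESeq2 called none. The values ran from -0.20 (DTYMK; ± 2 SE from -0.52 to 0.11) to 0.16 (CTPS2; from -0.09 to 0.41). For CTPS1 the change was -0.11 (from -0.36 to 0.15), so the data do not separate a stable difference from one that shrank. UMPS, called at the initial harvest only, changed by -0.09 (adjusted p = 0.81), so its passing at 1 harvest and not at the other is not shown to be a difference between harvests.

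Levels of different genes can be set beside each other only per kb of counted length. That length covers all annotated exons and not the transcript expressed, so the order of the genes depends on the gene models. In WT initial libraries the order was TK1 (169 ± 41.8 CPM per kb, SD, n = 3), RRM1 (53.9 ± 6.27), CAD (46.5 ± 2.4), RRM2 (39.7 ± 5.42), DCTD (22.0 ± 2.28), DTYMK (20.2 ± 3.89), CTPS1 (10.5 ± 1.41), UMPS (8.26 ± 0.87), DHODH (4.59 ± 0.194) and CTPS2 (4.53 ± 0.248). The ranges of CAD and RRM2, of DCTD and DTYMK, and of DHODH and CTPS2 overlapped, and the other neighbours in that order did not. TK1 was highest in every group. In KO initial libraries CAD (51.0 CPM per kb) overlapped with RRM1 (50.1), and RRM1 with RRM2 (46.6), while CAD and RRM2 did not overlap. CTPS2 was the lowest member in every group but WT final, where DHODH was lower (3.92 against 4.57 CPM per kb, without overlap).

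The 10 genes lie on 7 autosomes and the X chromosome, with CAD, RRM2 and DTYMK on different parts of chromosome 2. Among the 5 tested genes on each side of CTPS1 the median log2 difference between genotypes was 0.06 at the initial harvest, with none called higher and 1 lower, and 0.21 at the final, with 4 called higher and 1 lower. The neighbours of UMPS had medians of 0.16 and 0.10, with 3 and 2 of 10 called higher and 1 and 2 called lower. The 10 neighbours of RRM2 had medians of -0.14 and -0.37, with 1 called higher at each harvest and 3 and 4 called lower. Counts assigned to genes that overlap a member amounted to at most 0.05% of the member's own, and the RRM2 pseudogenes RRM2P2, RRM2P3 and RRM2P4 held at most 3 counts in a library.

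The pattern of each gene over the 12 libraries was compared with 10114 genes of a mean log2 CPM of at least 3, by the root mean square difference of the centred log2 levels. Nearest to CAD were RPN1 (0.0446), PIGS (0.0494) and FUCA2 (0.0516), where the median of all genes was 0.186. Nearest to RRM2 were TRIP13 (0.0441), DDX46 (0.0482) and EARS2 (0.0558), where it was 0.215. Among the members, the closest pairs were DCTD with RRM1 (0.0822), UMPS with RRM2 (0.0847) and UMPS with CTPS1 (0.0941). RRM1 and RRM2, partners in 1 enzyme, were farther apart at 0.172. These likenesses share the depth and composition of the same libraries and are descriptions without a test.

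The other genes of the pathway were counted by list, to be read beside the 19.9% and 18.5% of all genes called at the initial and final harvest. Of 9 salvage and uptake genes tested, 2 were higher and 1 lower in the knock-out at each harvest. UPP1, the phosphorylase that splits uridine, was at 30.8 to 42.0 CPM in WT initial and at 15.6 to 17.4 CPM in KO initial libraries (-1.16, adjusted p = 2.73e-06) and again lower at the end (-0.43, adjusted p = 0.0159). CMPK2, a mitochondrial UMP and CMP kinase, was higher at the final harvest (0.65, adjusted p = 0.00742), after an initial difference of 0.27 (adjusted p = 0.233). Of 8 breakdown genes and nucleotidases tested, 2 were higher and 3 lower at the initial and 1 higher and 2 lower at the final harvest. DPYD, the enzyme that begins pyrimidine breakdown, was lower at both (-0.51, adjusted p = 0.0277; -0.69, adjusted p = 0.0042), and so was NT5E, the ectonucleotidase CD73 (-0.77, adjusted p = 3.15e-05; -1.04, adjusted p = 1.01e-06). The initial call of DPYD was lost without WT initial replicate 3 (-0.50, adjusted p = 0.0802) and without KO initial replicate 1 (-0.43, adjusted p = 0.111) or 3 (-0.49, adjusted p = 0.0899). UPB1, of the same breakdown route, was higher at both (1.65, adjusted p = 0.00175; 1.996, adjusted p = 0.000556) at a low level, at most 1.61 CPM.

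Of 9 tested genes that supply PRPP, glutamine and aspartate, 2 were higher and 2 lower at the initial and 2 higher and 3 lower at the final harvest. SLC1A5, a glutamine transporter, was lower at both (-0.63, adjusted p = 0.0014; -0.54, adjusted p = 0.0045), and GOT1, the cytosolic aspartate aminotransferase, likewise (-0.48, adjusted p = 0.0043; -0.56, adjusted p = 0.00121). SLC25A13, a mitochondrial aspartate carrier, was higher at both (0.53, adjusted p = 0.000179; 0.49, adjusted p = 0.000438), and so was CA2, a carbonic anhydrase (1.12, adjusted p = 3.73e-06; 0.78, adjusted p = 0.000141). Of 11 further genes of deoxynucleotide supply, RRM2B alone was called at the initial and none at the final harvest. Of 12 regulators of these enzymes, 0 were higher and 1 lower at the initial and 1 higher and 2 lower at the final harvest. E2F3, a transcription factor of S phase genes, was lower at both (-0.70, adjusted p = 4.21e-06; -0.66, adjusted p = 8.19e-06), and 9 of the 10 genes round it on chromosome 6 were also called lower, with medians of -1.75 and -1.67. E2F7, a repressor of the same family, was higher at the final harvest (0.60, adjusted p = 7.52e-05), after an initial difference of 0.14 (adjusted p = 0.267). Of 22 S phase genes none was called at either harvest in the reported edgeR fit, with 2 at an unadjusted p under 0.05 at each. At the final harvest 1 was called without the filter on low counts, and 1 when only the groups compared were fitted. Leaving out 1 library gave 0 to 6 calls of S phase genes at the initial and 0 to 2 at the final harvest. Of 14 G2 and M phase genes CDC20 was called at the initial harvest (0.37, adjusted p = 0.0371) and none at the final, and that call was kept in 4 of 12 fits that each left out 1 library: those without WT initial replicate 2, WT final replicate 1 and KO final replicates 2 and 3. In the other 8 fits its adjusted p ran from 0.0501 to 0.142, and it was 0.0581 when only the groups compared were fitted. That list had 4 calls at the initial harvest without the filter on low counts, and 2 at the final with DESeq2 or at a mean CPM of at least 1.

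**Figure D5:**
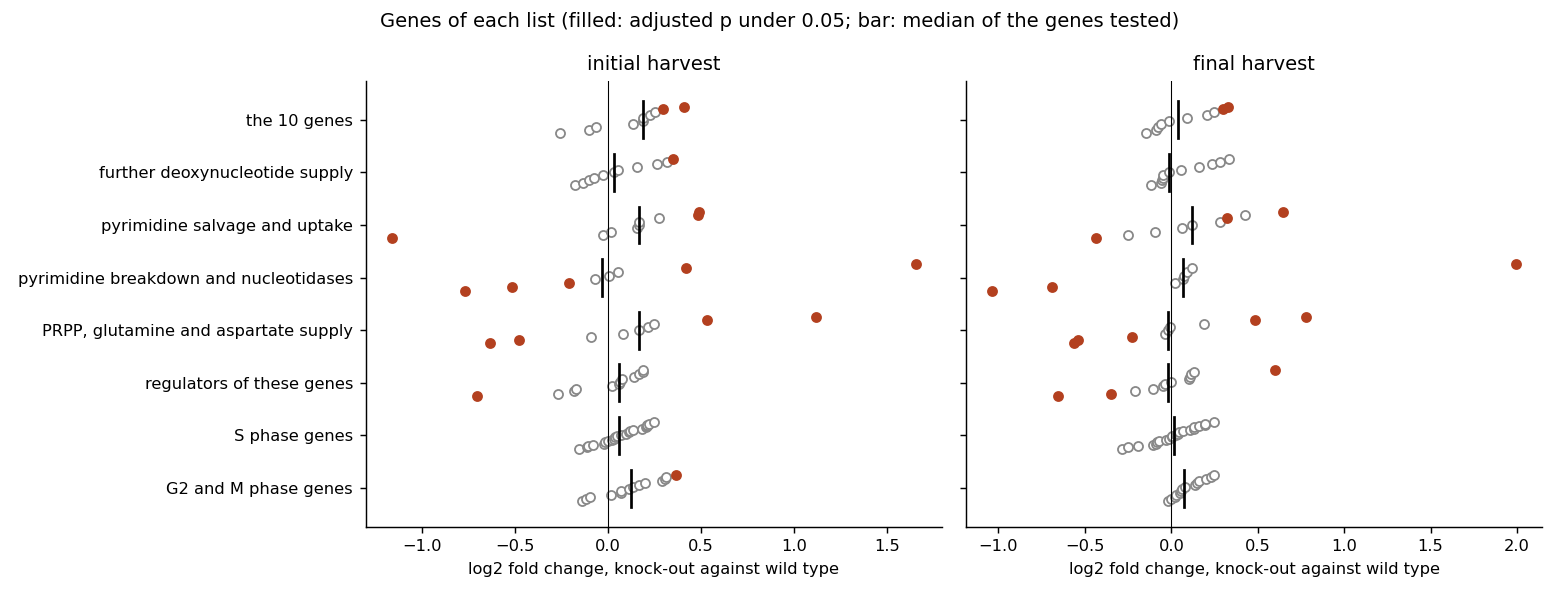
log2 fold change of knock-out against wild type (horizontal axis) for the genes of each list (rows) at the initial (left) and final (right) harvest; filled points have an adjusted p under 0.05, and the bar is the list's median. The 10 enzymes span -0.26 to 0.41 and -0.15 to 0.33, while the breakdown list spans -0.77 to 1.65 and -1.04 to 1.996 and no S phase gene is filled.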

How the data were processed

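Poly-A selected RNA of 12 HCT116 libraries was sequenced, and the authors deposited raw gene counts, 1 column per library; STAR, Subread, featureCounts and hg38 are named per the submitters' processing notes, without versions. Strand use, multi-mapping reads and the annotation release are not given in the sources used here. Symbols were found for 60506 of 60648 genes; 5 lines of 1 gene broken by a spreadsheet were left out. Of the gene IDs, 37318 occur with the same version in GENCODE 29, all at identical GRCh38 coordinates; none of the members' does.

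After filterByExpr (18289 genes left) and TMM scaling, a single edgeR quasi-likelihood model with a mean per group covered all libraries. Versions were edgeR 4.0.16, R 4.3.3 and limma 3.58.1, with DESeq2 1.42.0 as an alternative. Ratios used 0.1 CPM added to each gene and exact permutation tests, adjusted over 8 tests. The fit was tested on simulated data. Within groups, libraries correlated at 0.988 to 0.994 across genes and differed by more than counting noise in every pair.

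The genes named outside the 10 members are those called with an absolute log2 fold change of at least 0.5 in each list and genotype comparison, or otherwise the called gene of smallest adjusted p if the list had no such gene, plus RRM2B, TK2, TYMS and the 3 nearest genes to CAD and RRM2. The members and lists were chosen with earlier results of these data known.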

Additional observations from a re-analysis of the deposited data

Results flagged for a closer look

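The interaction of genotype and time differed from 0 for 1 named gene, UPP1, the uridine phosphorylase: its knock-out difference was -1.16 initially and -0.43 finally, a change of 0.73 on the log2 scale (edgeR quasi-likelihood, adjusted p = 0.0415). Its levels were 36.4, 42.0 and 30.8 CPM in WT initial, 26.8, 21.9 and 20.5 CPM in WT final, 17.4, 15.7 and 15.6 CPM in KO initial and 16.8, 17.4 and 17.0 CPM in KO final libraries, so the spread between harvests was in the wild type. The call was lost in 8 of 12 fits that each left out 1 library: WT final replicates 2 (0.67, adjusted p = 0.157) and 3 (0.64, adjusted p = 0.137), KO initial replicates 1 (0.77, adjusted p = 0.0725), 2 (0.70, adjusted p = 0.138) and 3 (0.70, adjusted p = 0.132), and KO final replicates 1 (0.73, adjusted p = 0.0998), 2 (0.71, adjusted p = 0.105) and 3 (0.72, adjusted p = 0.0922).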

How the results depend on the processing

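Of 290 values of the members under other settings than leaving out a library, 287 kept their direction and their side of the threshold, 2 came to pass it (CTPS2 at the initial harvest, with DESeq2 and with genes of a mean CPM of at least 1) and 1 changed sign: at a mean CPM of at least 1 the final genotype difference was 0.001 for DTYMK (-0.01 in the reported fit). Outside the members, that of TK2 was 0.0035 there. The cause was not tested. Adding 1 CPM in place of 0.1 to the ratios changed none of their 8 calls. The genes called between harvests in the knock-out were 270, but 535 with DESeq2, 484 without a filter on low counts and 728 when only the groups compared were fitted; in the wild type that last fit gave 578 against 1183. The interaction called 235 genes, 450 with DESeq2 and 423 without the filter. Leaving out each library in turn, the members called ranged from 1 to 5 at the initial and from 0 to 2 at the final harvest. The genes called ranged from 2423 to 4615 between genotypes at the initial harvest, from 627 to 1399 between harvests in the wild type, from 94 to 463 in the knock-out and from 124 to 444 for the interaction.

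Near 0, leaving out a library also changed the sign of values that had not passed the test, none of which then passed. Between genotypes, DCTD ranged from -0.11 to 0.02 (0.0228 without WT initial replicate 2) at the initial harvest. In the comparison of genotypes at the end, CAD ranged from -0.13 to 0.041, DTYMK from -0.0915 to 0.0586, TK1 from -0.0405 to 0.21 and TK2 from -0.0413 to 0.0257. Between harvests in the wild type, CTPS1 ranged from -0.0968 to 0.0826, CTPS2 from -0.0246 to 0.0472, DTYMK from -0.0494 to 0.21, TK1 from -0.26 to 0.0998, DCTD from -0.11 to 0.0288 and RRM2 from -0.15 to 0.033. In the knock-out, UMPS ranged from -0.0526 to 0.0066 and RRM2 from -0.13 to 0.0035. The interaction of RRM1 ranged from -0.0708 to 0.0908 and that of RRM2 from -0.0967 to 0.086. Among the ratios, RRM2 to RRM2B between genotypes ranged from -0.15 to 0.0192. Between harvests the ranges were -0.0011 to 0.0401 for RRM2 to RRM1 and -0.13 to 0.0378 for TK1 to TK2. The ratios whose sign held but whose call between harvests changed ranged from -0.23 to -0.12 for CTPS1 to CTPS2 and from -0.44 to -0.27 for RRM2 to RRM2B.

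Libraries of the same replicate number did not deviate together (correlations from -0.327 to 0.202, 6 of 18 pairs over 0.1, and 2 of 12 libraries closest to one of their own number), so the number was not taken to pair samples. With the replicate block, 2, 2, 0, 0 and 0 members were called in the 5 comparisons, among 3539, 3298, 1123, 246 and 217 genes, and no call of a member changed.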
